A study of Mus musculus with 10 samples.

Results

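The transcripts followed here are 35 autophagy and lysosome genes of mouse liver, measured after gavage with ethanol or with maltose. They were chosen by name, for their place in the pathway, with earlier results of these data known. Each was read from its probe with the highest mean signal. Of the 35, 34 were matched to a probe, all 34 passed the limit on dim probes, and 30 were tested, among 26124 genes tested in all. Of those 26124, 15111 had a gene symbol. The rest were probe targets without a symbol, each counted as a gene under its array name. Shares of all genes given below include both kinds. Atg9a, which encodes the lipid scramblase carried by autophagosome seed vesicles, was matched to no probe by symbol and was not analysed here. Sqstm1, Bnip3, Lamp1 and Lamp2 had bright probes but too few usable spots and are described separately.

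Autophagy delivers cytoplasm, damaged organelles and stored glycogen and lipid to the lysosome. The ULK1 kinase complex starts the process, a lipid kinase complex around Beclin 1 and VPS34 marks the membrane with phosphatidylinositol 3-phosphate, WIPI proteins read that mark, and conjugation enzymes couple the ubiquitin-like ATG8 proteins (LC3 and GABARAP) to the growing membrane. Receptors such as p62 and NBR1 tie cargo to ATG8 proteins, fusion joins the vesicle to a lysosome acidified by the vacuolar proton pump, and cathepsins degrade the contents. The liver relies on this pathway in fasting, and several of these proteins are regulated by phosphorylation or turnover, so transcript levels give no measure of the flow of material through the pathway.

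All animals were male C57BL/6N mice, and fresh liver was the source of the RNA. By the labels 3 samples came from the maltose group, whose sugar was matched in calories to ethanol at 5 g/kg, 4 from the group given ethanol at 5 g/kg and 3 from the group given 7 g/kg, so the higher dose had no control of equal calories. Age and the time from gavage to tissue collection are not given in the sources used here. Each sample was labelled with Cy5 and hybridised with an assorted mouse RNA in Cy3 that served as the common reference, and every value is the log2 ratio of liver over that reference, so a level below 0 means less signal than in the reference. The labels name that reference as assorted total RNA but also give liver as its tissue, so the tissues it holds are not settled here. The labels number the samples but do not state separate animals, so p-values measure the spread between arrays. Median liver signals ran from 121 to 219 units by array against 21 to 24 units of local background, and between 67.3% and 86.2% of spots stood well above background. All 9 hepatocyte markers matched to a probe, Alb and Apoa1 among them, stood well above background on all 10 arrays. Every adjusted p is limma's, with Benjamini-Hochberg adjustment over all genes tested, and a gene passed when it was under 0.05. Changes are log2 differences between group means, with n = 3 control, 4 (5 g/kg) and 3 (7 g/kg) arrays unless a smaller n is stated, and the number of arrays limits their precision.

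Few members changed at 5 g/kg, and members moved in both directions at 7 g/kg. At 5 g/kg, 2 of 30 tested members rose, Atg16l1 and Wipi1, and 0 fell in the limma fit, against 2.23% of all genes higher, 1.57% lower and 3.8% in either direction. At an unadjusted p under 0.05 the count was 7 of 30 (23.3%), against 15.5% of all genes. At 7 g/kg, Ulk1 and Wipi1 rose and Atg7, Gabarapl1, Pink1 and Tfeb fell, 6 of 30 (20%), against 9.01% of all genes in either direction, 4.66% higher and 4.35% lower. At an unadjusted p under 0.05 the count was 12 of 30 (40%), against 20.1%. The median change of the tested members was 0.02 at 5 g/kg and 0.08 at 7 g/kg, beside 0.003 and 0.012 over all genes, with member changes from −0.36 to 0.58 and from −0.62 to 0.94. For 21 of the 30 at 5 g/kg and 17 at 7 g/kg the 95% interval of the change lay within ±0.5. Median centring in place of loess moved the split of all passing genes from 582 higher and 410 lower to 664 and 217 at 5 g/kg, from 1218 and 1137 to 1334 and 657 at 7 g/kg, and from 173 and 237 to 166 and 151 between the doses. The counts over all genes also depended on single arrays. At 5 g/kg 992 genes passed, against 469, 634 and 505 without control 1, 2 and 3, and at 7 g/kg 2355 passed, against 1506 without control 1. Between the doses 410 passed, against 203 and 229 without 7 g/kg array 1 and 2 and 258 and 229 without 5 g/kg array 1 and 2. Both comparisons use the same control arrays, so they are not independent of each other.

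**Figure D1:**
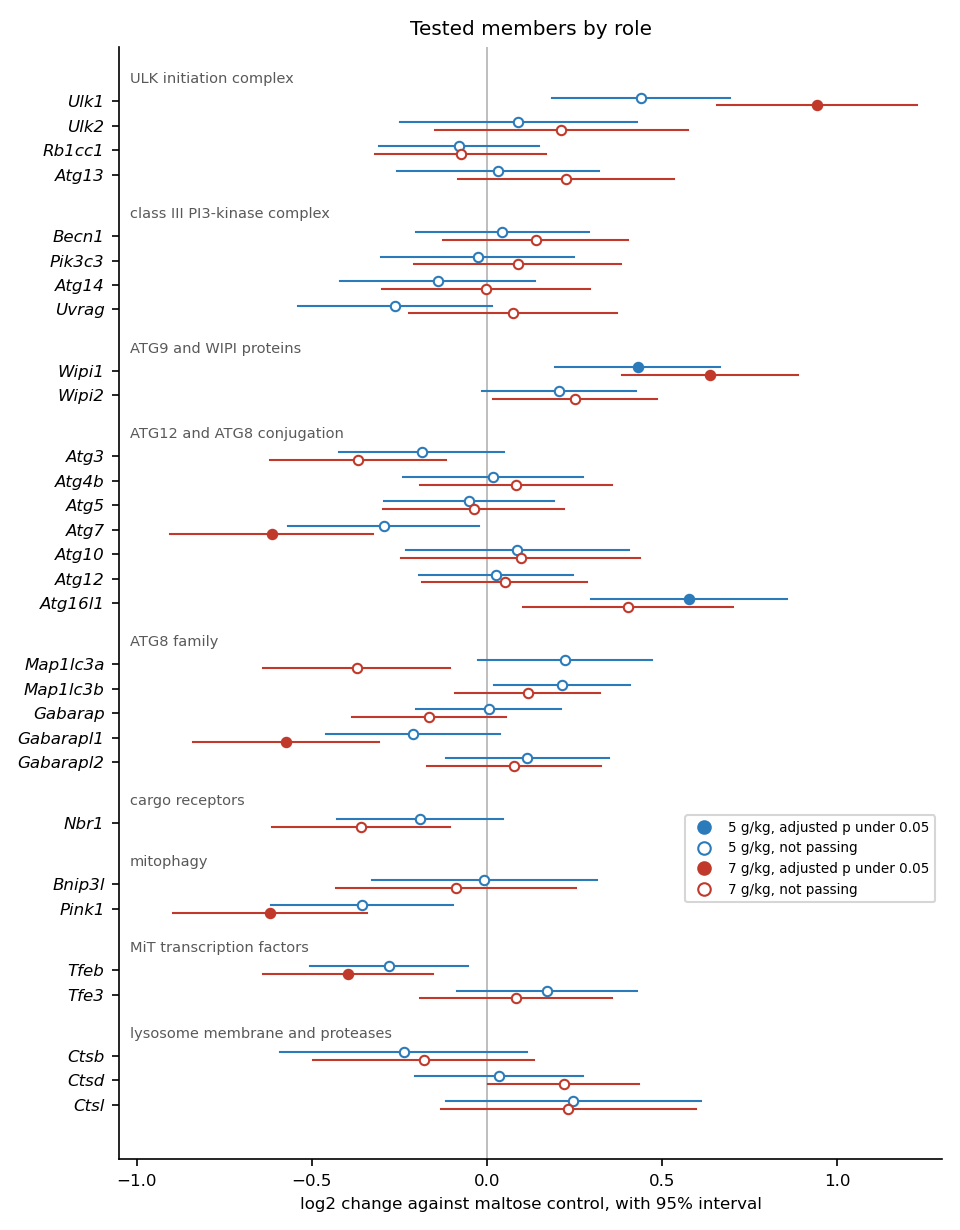
Log2 change against the maltose control (horizontal axis) with its 95% interval for the 30 tested members, ordered by role, at 5 g/kg (blue) and 7 g/kg (red) ethanol. Filled points passed at an adjusted p under 0.05: Atg16l1 and Wipi1 at 5 g/kg, and Ulk1, Wipi1, Atg7, Gabarapl1, Pink1 and Tfeb at 7 g/kg.

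Promoter sequence was available from RefSeq (GRCm38.p6) for 27 of the 35 members, in 31 windows of 250 bases before to 50 after a start site. TFEB and TFE3, both members, bind the E-box CACGTG and its extended form TCACGTGA in promoters of lysosome genes. The letters CACGTG, the same on both strands, occurred in 8 of 31 member windows (25.8%), those of Atg14, Atg3, Atg5, Atg7, Bnip3, Lamp1, Ctsd and Ctsl, and in 7.15% of all 32851 windows. The overlapping longer form TCACGTGA occurred in 2 member windows (6.45%), those of Atg3 and Ctsd, against 0.974% of all windows, and the FOXO core GTAAACA, searched on both strands, in 0 against 3.65%. The stretches shown are those of Atg3 and Ctsd, which hold the longer form, Lamp1, which holds 4 copies of the core, Atg7, which fell at 7 g/kg, and Bnip3, which was lower at 7 g/kg when marked spots were kept. Each is written along the strand of the gene and ends before the start site, with CACGTG in capitals.
Atg3 (GRCm38.p6, chr16:45158695-45158803, plus strand): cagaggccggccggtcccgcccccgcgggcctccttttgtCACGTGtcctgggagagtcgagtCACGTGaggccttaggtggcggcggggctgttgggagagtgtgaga
Atg7 (GRCm38.p6, chr6:114670924-114671009, plus strand): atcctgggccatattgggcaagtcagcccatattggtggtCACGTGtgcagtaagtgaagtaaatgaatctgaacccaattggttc
Lamp1 (GRCm38.p6, chr8:13159060-13159160, plus strand): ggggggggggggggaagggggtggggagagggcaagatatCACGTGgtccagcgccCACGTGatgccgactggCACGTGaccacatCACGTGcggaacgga
Bnip3 (GRCm38.p6, chr7:138909569-138909654, minus strand): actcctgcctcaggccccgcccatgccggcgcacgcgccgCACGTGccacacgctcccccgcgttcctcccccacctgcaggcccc
Ctsd (GRCm38.p6, chr7:142388027-142388077, minus strand): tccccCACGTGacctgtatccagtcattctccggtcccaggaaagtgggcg
Ctsd (GRCm38.p6, chr7:142387880-142387965, minus strand): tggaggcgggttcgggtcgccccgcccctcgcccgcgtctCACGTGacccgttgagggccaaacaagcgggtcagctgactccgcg
A match describes letters in a window and shows no binding. At 7 g/kg, of the 8 genes with the core, Atg7 changed by −0.62 and passed, Atg3 by −0.37, Atg5 by −0.04, Atg14 by −0.002, Ctsd by 0.22 and Ctsl by 0.23 without passing, and Bnip3 and Lamp1 were not tested.

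Within the initiation complex, Ulk1, the kinase that starts autophagosome formation, was the member with the greatest rise among those tested. Its log2 ratios were −0.69, −0.43 and −0.70 on the control arrays, −0.09, −0.10 and −0.31 on 5 g/kg arrays 1 to 3, and 0.30 and 0.37 on 7 g/kg arrays 2 and 3. On this probe no groups overlapped, with control lowest and 7 g/kg highest. At 7 g/kg Ulk1 was 1.92-fold higher than control (log2 0.94, SE 0.131, adjusted p = 0.000715, n = 2 and 3). The 5 g/kg difference was 0.44 (SE 0.117, adjusted p = 0.0618, n = 3 and 3) and did not pass. On the 2 arrays without a value the spot had been marked as an outlier, and with marked spots kept 7 g/kg array 1 read 0.79, 5 g/kg array 4 read −0.07 and the difference at 7 g/kg was 1.104 (adjusted p = 0.000174). A second Ulk1 probe changed by 1.15 at 7 g/kg (SE 0.23, adjusted p over probes = 0.00496, n = 3 and 3), with 7 g/kg array 1 at 1.09 and the other two at 0.34 and 0.26. On that probe the 5 g/kg arrays read 0.80, −0.12, 0.11 and 0.04, so the doses overlapped, and the 5 g/kg difference was 0.80 (SE 0.215, adjusted p over probes = 0.0524). The related kinase gene Ulk2 differed from control by 0.21 at 7 g/kg, Atg13, whose product bridges ULK1 to its partners, by 0.23, and Rb1cc1, which encodes the scaffold FIP200, by −0.08. None of these 3 passed at either dose, and the other 5 Rb1cc1 probes lay between −0.20 and 0.18 at 7 g/kg. A second Ulk2 probe gave −0.23, opposite in sign to the first.

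The class III lipid kinase complex had 0 of 4 members passing at either dose in the limma fit, with 0 at an unadjusted p under 0.05 in both comparisons with control. Over all genes 3.8% and 9.01% passed at 5 and 7 g/kg, and 15.5% and 20.1% had an unadjusted p under 0.05. With 4 genes and such shares, a count of 0 does not set the complex apart. Becn1, the scaffold Beclin 1, differed from control by 0.04 and 0.14, Pik3c3, the catalytic subunit VPS34, by −0.03 and 0.09, and Atg14, which directs the complex to early autophagosomes, by −0.14 and −0.002 at 5 and 7 g/kg. For all 4 genes the 95% interval at 7 g/kg lay within ±0.5. Uvrag, the subunit of the endosomal form, read −0.05, −0.04 and 0.01 in controls and −0.46 to −0.18 at 5 g/kg, with no overlap, a difference of −0.26 that did not pass (SE 0.129, adjusted p = 0.356). At 7 g/kg its arrays were spread from −0.16 to 0.40.

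Wipi1, whose product binds the lipid mark made by that complex, rose at both doses. Control arrays read −0.56, −0.26 and −0.46, the 5 g/kg arrays 0.12, −0.04, −0.04 and −0.02, and the 7 g/kg arrays 0.40, 0.14 and 0.09. All 7 ethanol arrays stood above the 3 controls. The rise was 1.35-fold at 5 g/kg (log2 0.43, SE 0.11, adjusted p = 0.0427) and 1.56-fold at 7 g/kg (log2 0.64, SE 0.118, adjusted p = 0.00304). A second probe gave 0.63 at 5 g/kg (SE 0.106, adjusted p over probes = 0.00461) and 1.00 at 7 g/kg (SE 0.127, adjusted p over probes = 0.000218, n = 2 and 3). On the first probe the 5 g/kg call was lost without control 1, control 3 or any 1 of the 4 arrays at 5 g/kg (adjusted p from 0.0684 to 0.208). Slide as a block (log2 0.45, adjusted p = 0.0534) and median centring (log2 0.47, adjusted p = 0.0589) also ended that call for Wipi1. Its paralog Wipi2, which recruits ATG16L1, differed from control by 0.21 and 0.25 without passing, and its second probe read −0.06 and −0.18, so the direction for Wipi2 depended on the probe.

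Among the 7 conjugation genes, Atg16l1 rose at 5 g/kg and Atg7 fell at 7 g/kg. Atg16l1, whose product sets the site where ATG8 is attached, read −0.47, −0.55 and −0.87 under maltose, 0.06, −0.01, −0.23 and −0.03 with the lower dose, and 0.03, −0.42 and −0.30 with the higher dose. Every ethanol array was above every control. The change was 0.58 at 5 g/kg (1.49-fold, SE 0.131, adjusted p = 0.0238) and 0.40 at 7 g/kg (SE 0.14, adjusted p = 0.0977). With slide as a block the 7 g/kg difference passed at 0.53 (adjusted p = 0.0198), and the 5 g/kg call was lost without control 2, control 3, 5 g/kg array 1 or 5 g/kg array 2 (adjusted p from 0.0559 to 0.128). The direction of Atg7, the E1-like enzyme that activates both ubiquitin-like proteins, was opposite to that of Atg16l1. The gene read −0.17, 0.17 and −0.11 on the maltose arrays, −0.33, −0.09, −0.46 and −0.44 after 5 g/kg, and −0.45, −0.80 and −0.70 after 7 g/kg. The 7 g/kg arrays lay under all controls, while the 5 g/kg arrays overlapped with them. Compared with control, the 7 g/kg livers held 1.53-fold less Atg7 transcript (log2 −0.62, SE 0.136, adjusted p = 0.0101), and without control 2 the adjusted p was 0.0524. With median centring the change was −0.50 (adjusted p = 0.0502). Its 5 g/kg difference was −0.295 (SE 0.127, adjusted p = 0.271).

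The other 5 conjugation genes did not pass at either dose. Atg3, the E2-like enzyme for ATG8, read 0.02, 0.12 and 0.19 in controls and −0.25, −0.20 and −0.33 at 7 g/kg, with no overlap, a difference of −0.37 (SE 0.117, adjusted p = 0.0677). Its second probe gave 0.01, so the 2 Atg3 probes disagreed. Atg5 and Atg12, whose products are joined to each other, differed from control at 7 g/kg by −0.04 and 0.05, Atg10, the E2-like enzyme for ATG12, by 0.10, and Atg4b, the protease that trims ATG8 proteins, by 0.08. For all 4 the 95% interval at 7 g/kg lay within ±0.5.

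In the ATG8 family Gabarapl1 fell at 7 g/kg, and Map1lc3a was the member that passed between the doses. Gabarapl1 read 0.19, 0.28 and 0.37 under maltose, 0.07, −0.09, −0.01 and 0.30 with the lower dose, and −0.40, −0.37 and −0.12 with the higher dose. All 7 g/kg arrays were below 0 and all controls above it. The fall at the higher dose was 1.49-fold (log2 −0.57, SE 0.124, adjusted p = 0.00878), and its second probe fell by 0.80 (SE 0.132, adjusted p over probes = 0.00194). Map1lc3a, which encodes LC3A, read 0.45, 0.12 and 0.03 on the maltose arrays, 0.62, 0.34, 0.36 and 0.36 after 5 g/kg, and −0.15, −0.17 and −0.20 after 7 g/kg. The 7 g/kg arrays lay under all other arrays, and the 5 g/kg arrays overlapped with control. Its difference from control was 0.22 at 5 g/kg (adjusted p = 0.395) and −0.37 at 7 g/kg (adjusted p = 0.0847), neither of which passed. Map1lc3b, the gene for the LC3B form used as the usual marker of autophagosomes, differed from control by 0.215 (SE 0.0906, adjusted p = 0.257) and 0.12 (adjusted p = 0.591) without passing, and its second probe differed by 0.03 and −0.15. Gabarap differed by −0.17 and Gabarapl2 by 0.08 at 7 g/kg, and neither passed. The family held 1 gene lower, 0 higher and 4 that did not pass at 7 g/kg, against 4.35% of all genes lower and 4.66% higher.

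**Figure D2:**
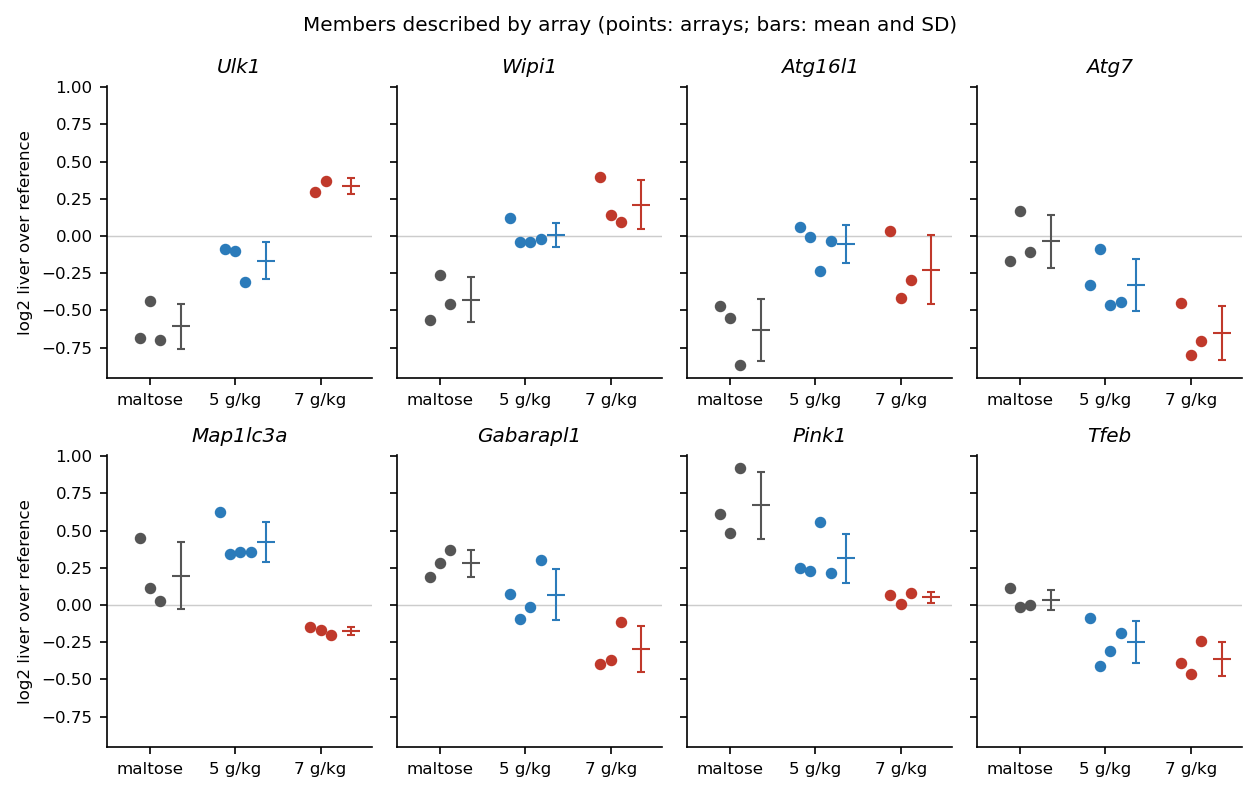
Log2 ratio of liver over reference (vertical axis) on each array for the 8 members that passed in at least 1 comparison, by group (maltose, 5 g/kg, 7 g/kg). Points are arrays, and the bar beside them is the mean with its SD. Ulk1 and Wipi1 stood above control on all ethanol arrays with a value, and Atg7, Gabarapl1, Pink1 and Tfeb stood below control on all 7 g/kg arrays.

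Cargo selection was read from Nbr1 and the mitophagy genes. Nbr1, a ubiquitin-binding receptor related to p62, read 0.06, 0.02 and 0.02 under maltose, −0.17, −0.03, −0.25 and −0.18 with the lower dose, and −0.22, −0.58 and −0.18 with the higher dose. Every ethanol array was under every control, yet the difference at 7 g/kg did not pass (−0.36, SE 0.119, adjusted p = 0.0797). Of its other 2 probes, 1 gave −0.57 (SE 0.158, adjusted p over probes = 0.0348) and 1 gave −0.15 (adjusted p over probes = 0.676). Pink1, the kinase that marks depolarised mitochondria for removal, read 0.61, 0.48 and 0.92 on the maltose arrays, 0.25, 0.23, 0.56 and 0.22 after 5 g/kg, and 0.06, 0.01 and 0.08 after 7 g/kg. The 7 g/kg arrays lay close together and under all 7 remaining arrays. Pink1 was 1.54-fold lower than control at 7 g/kg (log2 −0.62, SE 0.13, adjusted p = 0.00734), and at 5 g/kg the difference was −0.36 (SE 0.121, adjusted p = 0.142). Bnip3l, the mitophagy receptor NIX, differed from control by −0.01 and −0.09, with 7 g/kg arrays spread from −0.32 to 0.45.

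Tfeb, the transcription factor that drives lysosome and autophagy genes when it enters the nucleus, fell at 7 g/kg by a small amount. Control arrays read 0.11, −0.01 and −0.002, the 5 g/kg arrays −0.08, −0.41, −0.31 and −0.18, and the 7 g/kg arrays −0.39, −0.46 and −0.24. All 7 ethanol arrays were below the controls. The difference was −0.28 at 5 g/kg (SE 0.105, adjusted p = 0.193) and −0.40 at 7 g/kg (1.32-fold lower, SE 0.113, adjusted p = 0.0409). The call was lost without any 1 control, without 7 g/kg array 1 or without 7 g/kg array 2 (adjusted p from 0.0788 to 0.154) and with slide as a block (−0.315, adjusted p = 0.132) or median centring (−0.315, adjusted p = 0.192), and with the Cy5 channel alone the difference was 0.03 (adjusted p = 0.984). Its relative Tfe3 differed by 0.17 and 0.08 and did not pass.

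The lysosomal proteases among the members did not pass at either dose. Ctsd, an aspartic protease, read −0.15, −0.18 and −0.19 in controls, −0.14 on both 5 g/kg arrays with a value, and −0.01, 0.06 and 0.08 at 7 g/kg. The 7 g/kg arrays stood above the rest, by 0.22 over control (SE 0.0992, adjusted p = 0.237). Ctsb, a cysteine protease, differed by −0.24 (n = 2 and 3) and −0.18, with controls from 0.03 to 0.65, and its second probe by 0.06 and 0.02. Ctsl, a related protease, differed by 0.25 (n = 3 and 3) and 0.23 (adjusted p = 0.56 and 0.524).

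Sqstm1, Bnip3, Lamp1 and Lamp2 lacked usable spots: uneven Cy5 signal led to outlier marks on 5 arrays for Sqstm1, 6 for Bnip3, 5 for Lamp1, and 8 and 4 for the Lamp2 probes. All of these spots stood well above background on 10 arrays. With the marked spots kept, Bnip3, a mitophagy receptor of the outer mitochondrial membrane, read 0.05, 0.04 and 0.04 under maltose, 0.26, 0.03, 0.10 and 0.02 with the lower dose, and −0.44, −0.44 and −0.29 with the higher dose. The 7 g/kg arrays lay apart from the other 7, at −0.44 against control (SE 0.103, adjusted p = 0.0153) and −0.49 against 5 g/kg (SE 0.0965, adjusted p = 0.0171). These values rest on spots that the software rejected, so they stand as values under that setting. Sqstm1, which encodes p62, the receptor that autophagy itself degrades, read −0.25 to 0.14 in controls, −0.21 to 0.14 at 5 g/kg and −0.38 to −0.05 at 7 g/kg, and differed by 0.03 and −0.08 with overlapping groups. The lysosomal membrane glycoprotein genes did not pass either, with Lamp1 at −0.08 and 0.06 and Lamp2 at 0.13 and −0.17. The Lamp2 values are those of a single probe. On the other probe, unmarked spots read −0.08, −0.10 and −0.35 in controls and 0.81 and 0.59 on 5 g/kg arrays 1 and 3. Its single 7 g/kg value, on array 1, was −0.002. That probe was not tested, so a change of Lamp2 at 5 g/kg is not settled here.

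**Figure D3:**
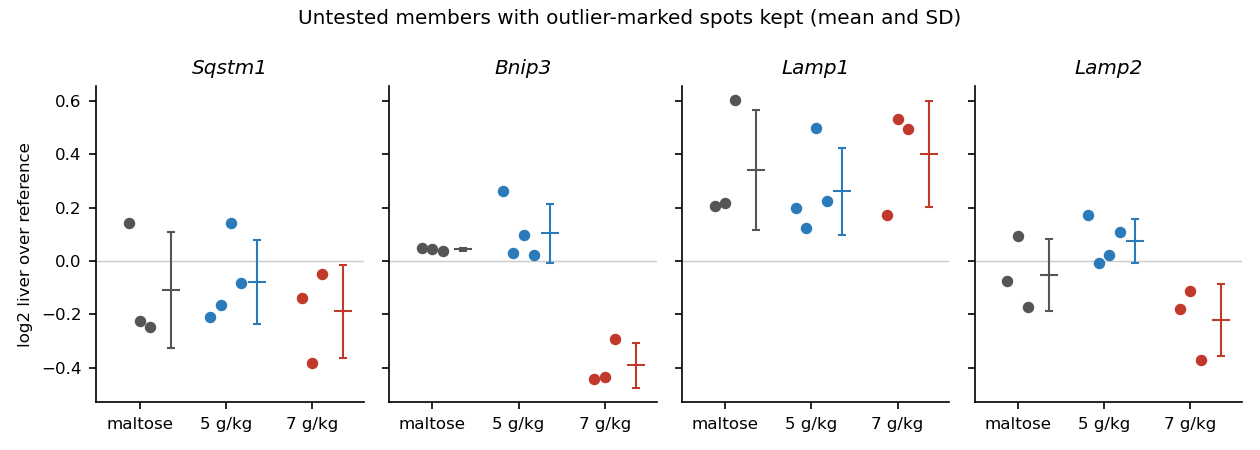
Log2 ratio of liver over reference (vertical axis) with outlier-marked spots kept, for the 4 members left untested, by group. Points are arrays and bars are the mean with its SD. Bnip3 lies between −0.44 and −0.29 at 7 g/kg, below all other arrays, while the groups overlap for Sqstm1 and Lamp1.

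Between the doses, 7 minus 5 g/kg, 1 of 30 members fell and 0 rose in the limma fit, against 0.907% of all genes lower, 0.662% higher and 1.57% in either direction, and 6 of 30 (20%) had an unadjusted p under 0.05, against 10.8%. The gene was Map1lc3a, 1.51-fold below its 5 g/kg level (log2 −0.59, SE 0.116, adjusted p = 0.0181). The call was lost without any 1 of the 7 g/kg arrays or without 5 g/kg array 1 (adjusted p from 0.0577 to 0.064) and with median centring (−0.57, adjusted p = 0.0703). Ulk1 differed by 0.50 between the doses (SE 0.131, adjusted p = 0.0985, n = 2 and 3), and passed with slide as a block (0.61, adjusted p = 0.0482) and with outlier-marked spots kept (0.64, adjusted p = 0.0231). Gabarapl1 differed by −0.36 (adjusted p = 0.195), but its second probe passed at −0.67 (adjusted p over probes = 0.0406, n = 3 and 2) and the mean of its probes at −0.56 (adjusted p = 0.0149). Uvrag differed by 0.34 (adjusted p = 0.318). For Wipi1, Atg7, Pink1 and Tfeb the differences were 0.21, −0.32, −0.26 and −0.12, and none passed, so a passing result at 7 g/kg with none at 5 g/kg is not shown to be a difference between doses for Atg7, Pink1 or Tfeb.

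The 10 arrays lay on 4 slides, and each slide held 2 or 3 groups. Within the 2 slides that held both control and 7 g/kg, Wipi1 was higher by 0.55 and 0.66, and Pink1 lower at −0.84 and −0.42. Gabarapl1 stood at −0.68 and −0.49 there, Atg7 at −0.62 and −0.59, and Tfeb at −0.38 and −0.24. Ulk1 was higher by 1.07 in the single slide with values for both groups. With slide as a block the 7 g/kg differences were 1.07 for Ulk1, 0.66 for Wipi1, −0.59 for Atg7, −0.56 for Gabarapl1 and −0.68 for Pink1, and all 5 passed. Within the 3 slides that held control and 5 g/kg, Wipi1 differed by 0.22 to 0.69 and Atg16l1 by 0.53 to 0.84, and within the 3 that held both doses Map1lc3a differed by −0.56 to −0.49. Read from the Cy5 channel alone, without the reference, Ulk1 was the only member to pass at 7 g/kg. Over all genes 520 passed in that setting, against 2355 with the reference. Wipi1 then stood at 0.51 (adjusted p = 0.428), Atg7 at −0.60 (adjusted p = 0.164), Gabarapl1 at −0.73 (adjusted p = 0.12) and Pink1 at −0.55 (adjusted p = 0.334), each in the same direction as with the reference. At 5 g/kg the deposited series table, analysed in the same way, gave 0.41 for Wipi1 (adjusted p = 0.0818) and 0.60 for Atg16l1 (adjusted p = 0.0659), neither passing.

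The rest of the pathway was followed in 145 further genes, of which 141 were matched to a probe and 138 tested. At 5 g/kg 7 rose and 3 fell (7.25%, against 3.8% of all genes), and at 7 g/kg 11 rose and 20 fell (22.5%, against 9.01%), with medians of 0.004 and −0.012. With median centring 8 rose and 0 fell at 5 g/kg, and 11 rose and 12 fell at 7 g/kg. Scanner signals gave 5 higher and 0 lower at 5 g/kg, and the replicate block 7 and 0. The 3 falls at 5 g/kg, of Wdr45, Calcoco1 and Ctsh, thus depended on the processing. Between the doses 1 rose and 5 fell (4.35%, against 1.57%). The vacuolar proton pump, which acidifies the lysosome, had 3 of 16 subunit genes higher at 5 g/kg (18.8%, against 2.23% of all genes) and 4 of 16 at 7 g/kg (25%, against 4.66%), and 0 lower at either dose in the limma fit, with 6 of 16 at an unadjusted p under 0.05 at each. Read from the Cy5 channel alone the counts were 0 and 2 higher. In that setting 93 and 325 of all genes were higher, against 582 and 1218 in the main fit. Atp6v0e, a small membrane subunit, read −0.64, −0.69 and −0.71 on the maltose arrays, 0.36, 0.25, 0.24 and 0.02 after 5 g/kg, and 0.15, 0.33 and 0.36 after 7 g/kg. All ethanol arrays were above 0 and all controls below it, a rise of 0.90 (SE 0.104, adjusted p = 0.000247) and 0.96 (SE 0.111, adjusted p = 8.88e-05). Atp6v1g1, a subunit of the stalk, rose by 0.65 and 0.86 (adjusted p = 0.0021 and 0.000152). Tcirg1, the a3 subunit gene, rose at 5 g/kg by 0.43 (adjusted p = 0.0302), a call lost without any 1 control or 5 g/kg array 2, 3 or 4 (adjusted p from 0.0516 to 0.127). Atp6v1a, the catalytic subunit gene, and Atp6v0a1 rose at 7 g/kg by 0.71 (adjusted p = 0.0151) and 0.40 (adjusted p = 0.0495). The first of these 2 calls was lost without control 1, control 3 or 7 g/kg array 2 (adjusted p from 0.0514 to 0.0619), and the second without any 1 control, any 1 of the 7 g/kg arrays, or 5 g/kg array 2 or 4 (0.0516 to 0.167). With slide as a block Tcirg1 at 5 g/kg stood at 0.42 (adjusted p = 0.0624) and Atp6v1a at 7 g/kg at 0.60 (adjusted p = 0.0864). Averaged over its 16 genes, the pump's log2 ratio was −0.32 to −0.20 on control arrays, −0.08 to 0.05 at 5 g/kg and −0.01 to 0.06 at 7 g/kg. Between the doses 0 of 16 passed in the limma fit, with 0 at an unadjusted p under 0.05, against 1.57% and 10.8% of all genes.

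Other lysosomal hydrolases and their activators had 1 gene higher and 1 lower of 38 at 5 g/kg, and 2 higher and 8 lower at 7 g/kg. These are 5.26%, near the 3.8% of all genes, and 26.3%, against 9.01% of all genes, or 3 higher and 6 lower at 7 g/kg with median centring. Lipa, the acid lipase that splits stored cholesteryl esters and triglyceride, read 0.37, 0.34 and −0.10 under maltose, −0.18, −0.30 and −0.20 with the lower dose, and −0.52, −0.63 and −0.63 with the higher dose. Lipa signal at the higher dose was 1.74-fold below control (log2 −0.80, SE 0.129, adjusted p = 0.00149). Ctsf, a cysteine protease gene, fell by 0.74 (adjusted p = 0.000509), Acp2, an acid phosphatase gene, by 0.60 (adjusted p = 0.00397), and Psap, the precursor of the saposins that help degrade sphingolipids, by 0.60 (adjusted p = 0.00291). These 3 genes also fell between the doses, by 0.475, 0.52 and 0.65 (adjusted p = 0.0267, 0.025 and 0.00759). Without 1 array the Ctsf call between doses was lost for 7 g/kg arrays 1, 2 and 3 and 5 g/kg arrays 1, 2 and 4 (adjusted p from 0.0563 to 0.101), and the Acp2 call for 7 g/kg arrays 1 and 2 and 5 g/kg arrays 3 and 4 (0.052 to 0.118). Ctsh, an aminopeptidase gene, fell at both doses, by 0.41 and 0.50 (adjusted p = 0.0271 and 0.00658), and Gm2a, the activator of ganglioside breakdown, rose at both, by 0.53 and 0.53 (adjusted p = 0.0265 and 0.0359, n = 2 at 7 g/kg). The 5 g/kg call for Ctsh was lost without any 1 control, 5 g/kg array 1 or 5 g/kg array 2 (adjusted p from 0.0611 to 0.115). That of Gm2a was lost at 5 g/kg without control 1, control 3 or 5 g/kg array 2, 3 or 4 (0.0533 to 0.144), and at 7 g/kg without control 1, control 3, 7 g/kg array 1 or 2, or 5 g/kg array 2 (0.0504 to 0.187). With slide as a block Gm2a at 7 g/kg stood at 0.38 (adjusted p = 0.0992) and Ctsf between the doses at −0.44 (adjusted p = 0.0615).

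Lysosomal membrane proteins had 0 of 15 genes passing at 5 g/kg in the limma fit (3.8% of all genes), with 5 (33.3%) at an unadjusted p under 0.05, against 15.5% of all genes. In the 7 g/kg comparison 1 was higher and 2 lower (20%, against 9.01%). Cd63, a tetraspanin of late endosomes and lysosomes, read −0.42, −0.39 and −0.29 on the maltose arrays, −0.05, −0.01, −0.20 and −0.34 after 5 g/kg, and 0.83, 0.58 and 0.80 after 7 g/kg. The 7 g/kg arrays lay far above all others, 2.15-fold over control (log2 1.105, SE 0.116, adjusted p = 4.34e-05) and 0.88 over 5 g/kg (SE 0.109, adjusted p = 0.000792). Npc1, the lysosomal cholesterol exporter, fell at 7 g/kg by 0.61 (adjusted p = 0.0103, and 0.0519 and 0.0524 without control 1 or 7 g/kg array 2), and the amino acid transporter gene Slc15a4 by 0.67 (adjusted p = 0.00459). At 5 g/kg Scarb2, the receptor that carries glucocerebrosidase to the lysosome, had the smallest p of the list and did not pass (0.315, adjusted p = 0.0883).

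**Figure D4:**
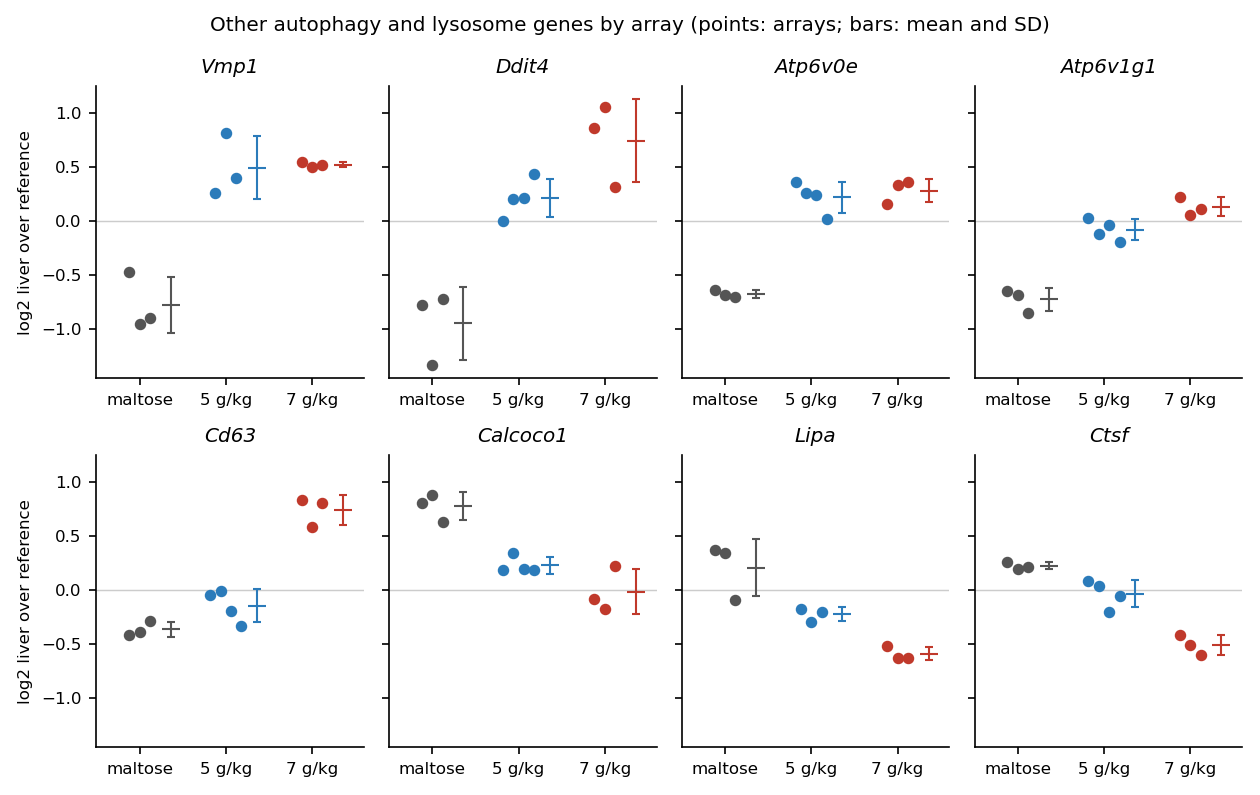
Log2 ratio of liver over reference (vertical axis) on each array for 8 genes outside the 35 members, by group. Points are arrays and bars are the mean with its SD. Vmp1, Ddit4, Atp6v0e and Atp6v1g1 lie above control on all ethanol arrays with a value, Cd63 stands apart at 7 g/kg (0.58 to 0.83), and Lipa and Ctsf are lowest at 7 g/kg.

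Autophagosome machinery beyond the members had 1 of 26 genes higher and 1 lower at 5 g/kg (7.69%, against 3.8% of all genes) and 2 higher and 3 lower at 7 g/kg (19.2%, against 9.01%). Vmp1, an ER scramblase needed for autophagosome formation, read −0.48, −0.96 and −0.90 under maltose, 0.26, 0.82 and 0.40 with the lower dose, and 0.54, 0.50 and 0.52 with the higher dose. It rose 2.41-fold at 5 g/kg (log2 1.27, SE 0.156, adjusted p = 0.000539, n = 3 and 3) and 2.46-fold at 7 g/kg (log2 1.3, SE 0.156, adjusted p = 0.000167), more than any of the 30 tested members. Vamp8, a SNARE of autophagosome fusion, fell at 7 g/kg by 0.62 (adjusted p = 0.00361). Vps33a and Vps16, subunits of the tethers that act with it, fell by 0.47 (adjusted p = 0.024) and 0.41 (adjusted p = 0.0423). The Vps33a call was lost without any 1 control or 7 g/kg array 2 (adjusted p from 0.0606 to 0.109), and that of Vps16 without any 1 of the control or 7 g/kg arrays or 5 g/kg array 1 or 2 (0.0518 to 0.176). Of the further WIPI genes, Wdr45 fell at 5 g/kg by 0.49 (adjusted p = 0.0191, and 0.0543 to 0.069 without any 1 control or 5 g/kg array 1). Wdr45b rose at 7 g/kg by 0.71 (adjusted p = 0.0429), a call lost without any 1 control, any 1 of the 7 g/kg arrays or 5 g/kg array 1 (0.0549 to 0.161). The calls of Vps33a, Vps16 and Wdr45b at 7 g/kg did not hold with slide as a block, with Vps33a at −0.39 (adjusted p = 0.0673), Vps16 at −0.38 (adjusted p = 0.0769) and Wdr45b at 0.625 (adjusted p = 0.105). Averaged over its probes Vps33a stood at −0.30 (adjusted p = 0.145).

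Selective autophagy receptors other than the members had 5 of 14 genes lower and 0 higher at 7 g/kg (35.7%), against 4.35% of all genes lower, with 2 of 14 lower by median centring and also with slide as a block, and 0 with the Cy5 channel alone. Over all genes 1137 were lower in the main fit, and 657, 788 and 195 in those settings. Calcoco1, a receptor of ER and Golgi autophagy, read 0.81, 0.88 and 0.63 on the maltose arrays, 0.18, 0.35, 0.19 and 0.19 after 5 g/kg, and −0.09, −0.18 and 0.22 after 7 g/kg. Every ethanol array was under every control, and the gene fell by 0.55 (SE 0.114, adjusted p = 0.0144, and 0.0679 and 0.0703 without control 1 or control 2) and 0.79 (SE 0.121, adjusted p = 0.000842). Stbd1, a glycogen-binding receptor, fell at 7 g/kg by 0.90 (SE 0.201, adjusted p = 0.0108), with its arrays at −0.003, −1.11 and −0.80 against 0.25, 0.26 and 0.27 in controls, and with slide as a block it stood at −0.80 and did not pass (adjusted p = 0.0508). The ER-phagy receptor gene Ccpg1 fell at 7 g/kg by 0.50 (adjusted p = 0.0142, and 0.0595 to 0.0659 without control 1 or 7 g/kg array 1 or 2). Phb2, an inner mitochondrial membrane receptor gene, fell by 0.42 (adjusted p = 0.0249, and 0.0612 to 0.0915 without any 1 control or 7 g/kg array 2 or 3). Between the doses Ccpg1 fell by 0.47 (adjusted p = 0.049, and 0.0663 to 0.202 without any 1 array other than 7 g/kg array 3). Ncoa4, the receptor for ferritin, rose at 5 g/kg by 0.75 (SE 0.119, adjusted p = 0.00513, n = 2 and 3) and fell between the doses by 0.74 (adjusted p = 0.0167, n = 2 and 2). With outlier-marked spots kept these became 0.54 (adjusted p = 0.0827) and −0.22 (adjusted p = 0.721). The call between the doses was also lost without 7 g/kg array 1 or 2 or 5 g/kg array 1 or 3 (0.0675 to 0.0951). Fitted with slide as a block, Phb2 at 7 g/kg stood at −0.35 (adjusted p = 0.107) and Ccpg1 between the doses at −0.46 (adjusted p = 0.099).

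Nutrient sensors that act on the ULK complex had 1 of 22 genes higher at 5 g/kg (4.55%, near the 3.8% of all genes) and 2 higher and 2 lower at 7 g/kg (18.2%, against 9.01%). Ddit4, which encodes the mTORC1 inhibitor REDD1, read −0.78, −1.34 and −0.73 under maltose, −0.004, 0.20, 0.21 and 0.43 with the lower dose, and 0.86, 1.05 and 0.31 with the higher dose. All ethanol arrays were above all controls, 2.23-fold at 5 g/kg (log2 1.16, SE 0.18, adjusted p = 0.00222) and 3.23-fold at 7 g/kg (log2 1.69, SE 0.193, adjusted p = 8.1e-05). At 7 g/kg Mtor, the kinase that restrains ULK1, rose by 0.42 (adjusted p = 0.0407), Tsc1, a subunit of its inhibitor, fell by 0.52 (adjusted p = 0.0259), and the folliculin partner gene Fnip1 fell by 0.50 (adjusted p = 0.0327). The Mtor call was lost without any 1 control, 7 g/kg array 2 or 3, or 5 g/kg array 1 (adjusted p from 0.0533 to 0.144). That of Tsc1 was lost without any 1 control or 7 g/kg array 2 or 3 (0.0582 to 0.0989), and that of Fnip1 without control 1 or 2 or 7 g/kg array 1 or 3 (0.0907 to 0.119). With slide as a block Mtor stood at 0.41 (adjusted p = 0.127) and Tsc1 at −0.48 (adjusted p = 0.0673), and averaged over its probes, which disagreed in size, Tsc1 stood at −0.20 (adjusted p = 0.445). Prkaa2, a catalytic subunit gene of the energy sensor AMPK, had the smallest p between the doses and did not pass (0.35, adjusted p = 0.0894). Other transcription factors of autophagy had 0 of 7 genes passing at 5 and 7 g/kg in the limma fit, with 1 and 0 at an unadjusted p under 0.05, against 15.5% and 20.1% of all genes. Foxo3, which had the smallest p among them at 5 g/kg, stood at −0.405 (adjusted p = 0.0574, with its probe well above background on 8 of 10 arrays), and Ppargc1a, with the smallest at 7 g/kg, at −0.38 (adjusted p = 0.276).

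**Figure D5:**
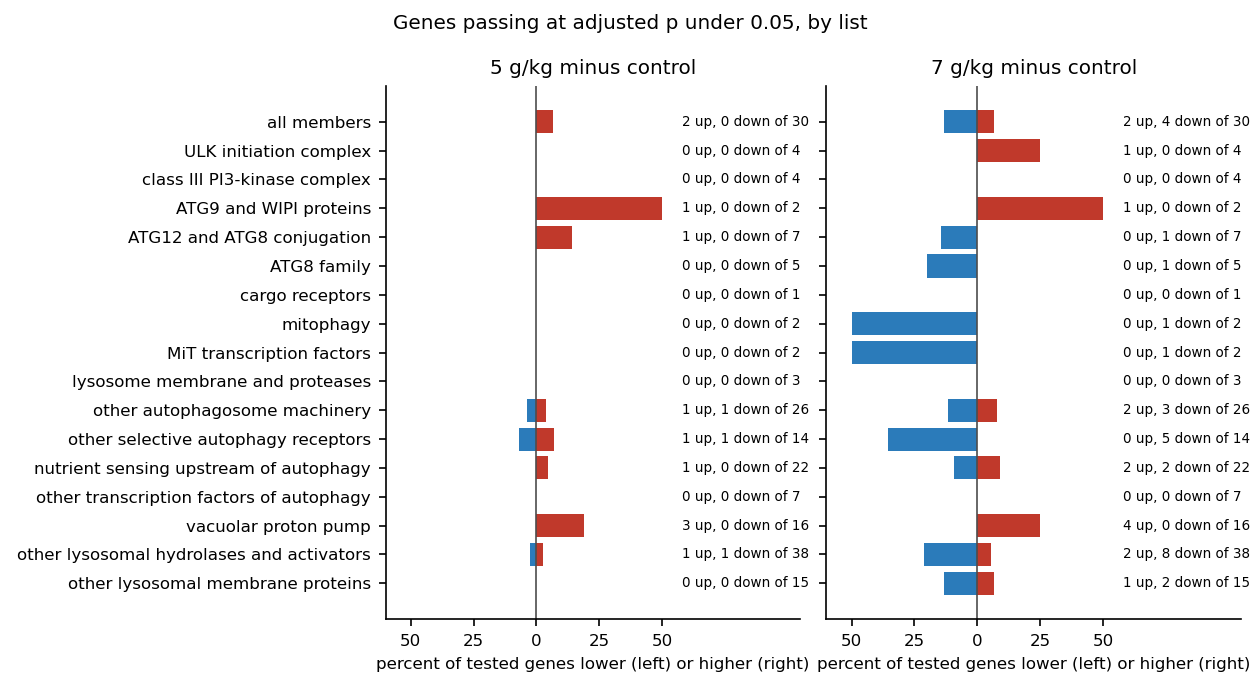
Percent of tested genes that passed at an adjusted p under 0.05 (horizontal axis, lower to the left in blue, higher to the right in red) for each list of members and of further genes, at 5 g/kg and 7 g/kg against control, with the counts beside each bar. The selective receptors (5 lower of 14) and hydrolases (2 higher, 8 lower of 38) have most of their calls at 7 g/kg. Over all genes more passed at 7 g/kg (9.01%) than at 5 g/kg (3.8%) as well. Several member lists hold only 1 to 5 tested genes, so 1 gene gives a long bar.

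Liver RNA comes from several cell types, and in whole tissue fewer cells of a type and less RNA per cell cannot be told apart. Lysosome genes are abundant in macrophages, and of 12 Kupffer cell and macrophage markers 10 were tested, of which 0 passed at either dose in the limma fit, with 0 and 1 at an unadjusted p under 0.05. Over all genes 3.8% and 9.01% passed at 5 and 7 g/kg, and 15.5% and 20.1% had an unadjusted p under 0.05. Every tested marker of each list stood well above background on at least 3 arrays. The macrophage markers' mean log2 ratio was −0.34 to −0.125 on control arrays, −0.29 to −0.12 at 5 g/kg and −0.41 to −0.005 at 7 g/kg. Of 12 neutrophil markers 10 were tested, and 2 rose at 7 g/kg, S100a9 by 1.405 and S100a8, for which no size is given because its probe stood well above background on 0 of 3 control arrays, 3 of 4 at 5 g/kg and 3 of 3 at 7 g/kg. S100a8 met the limit on dim probes through ethanol arrays only. The other tested neutrophil markers changed by −0.13 (Camp) to 0.31 (Mmp8) at 7 g/kg, and none passed. The median change of the list at that dose was 0.14. The neutrophil mean, S100a8 and S100a9 included, was −0.21 to −0.09 in controls, −0.21 to 0.26 at 5 g/kg and 0.15 to 0.25 at 7 g/kg. Both the median and the mean include S100a8, so no shift of the neutrophil list is read from them. Of 10 sinusoidal endothelial markers, Lyve1 (1.29), Cdh5 (0.59) and Stab1 (0.40) rose at 5 g/kg. Lyve1 (1.72), Cdh5 (0.675, n = 2 and 3) and Pecam1 (0.59) rose at 7 g/kg. These are 30% at each dose, against 2.23% and 4.66% of all genes higher, the shares that apply to every marker list. The rest did not pass and ran from −0.17 (Oit3) to 0.43 (Pecam1) at 5 g/kg. At 7 g/kg they ran from −0.28 (Kdr) to 0.24 (Stab1). The list medians were 0.065 and 0.073. Its means were −0.38 to −0.23 in controls, −0.15 to 0.07 at 5 g/kg and −0.07 to −0.01 at 7 g/kg. Hepatocyte markers had 1 and 3 of 9 higher (means 0.245 to 0.48, 0.51 to 0.70 and 0.51 to 0.80), stellate cell markers 1 and 0 of 7 higher (means −0.30 to −0.03, 0.055 to 0.19 and 0.08 to 0.17), and lymphocyte markers 1 and 2 of 8 higher (means −0.35 to −0.19, −0.21 to 0.08 and −0.12 to 0.08), with 0 lower in each list in the limma fit. The part of these shifts in the changes of the autophagy and lysosome genes was not tested.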

How the data were processed

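Gene expression was measured on 10 Agilent arrays of 2 colours, 1 per liver sample. The deposited scanner files hold linear intensities for 45018 spots, made with Agilent Feature Extraction 11.5.1.1 per the file headers, with the scanner's log10 ratio beside them. The deposited series table holds log2 ratios in the same direction, with a slope of 3.32 on that log10 ratio. Its centring is not given in the sources used here, and its column medians ran from −0.073 to 0.076.

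Median intensities were background-corrected (normexp, offset 50) and loess-normalized within arrays in limma 3.58.1 (R 4.3.3). Control spots and outlier-marked spots were left out, spots of a probe were averaged, and probes had to be well above background on at least 3 arrays with at least 2 values in each group. The probe with the highest mean signal stood for a gene. Gene symbols came from RefSeq, by the transcript named for each probe in the scanner files, and 59.2% of 41174 probes had a match. Transcript names in those files can be old, so a gene without a match can still have a probe. A single fit of the 3 group means, with empirical Bayes moderation, gave two-sided p-values, adjusted by Benjamini-Hochberg over 26124 genes. Only the model fit was tested on simulated gene-level values. Background correction, normalization, removal of spots, filtering and choice of probe were not tested in this way.

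The 35 members, the wider lists (autophagosome machinery, selective receptors, nutrient sensing, transcription factors, proton pump, hydrolases and activators, membrane proteins) and the cell type markers were chosen with earlier results of these data known. Members that passed in at least 1 comparison, or were among the 3 with the largest absolute change in one, are described array by array. Of each wider list up to 4 passing genes with the smallest p are named per comparison, or the 1 with the smallest p where none passed. Other genes were named after their values were seen. Alternatives were no background correction, median centring, the Cy5 channel alone, the scanner's processed signals, the series table, outlier-marked spots kept, other filters on dim probes, the mean of a gene's probes, a trended and robust prior, array weights, slide or replicate number as a block, and leaving out each array.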

Additional observations from a re-analysis of the deposited data

Results flagged for a closer look

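In the group of 4 arrays at 5 g/kg, 13 of the 54 genes examined had 1 array set apart from the other 3 by more than Dixon's 95% limit, which chance alone exceeds in about 1 in 20 groups. The 54 genes share the same 4 arrays and are not independent, so the count does not show an excess. The share over all genes was not computed. No cause was tested. Array 1 stood apart for Pik3c3 (−0.334, against 0.157 to 0.225 on the other arrays), Wipi1 (0.124, against −0.043 to −0.022), Atg4b (0.198, against 0.038 to 0.058) and Map1lc3a (0.623, against 0.343 to 0.359). Array 2 stood apart for Calcoco1 (0.346, against 0.181 to 0.19), Stbd1 (−0.317, against −0.126 to −0.111) and Mtor (0.185, against −0.084 to −0.06). Array 3 did so for Gabarap (−0.041, against 0.06 to 0.08), Bnip3l (0.344, against 0.14 to 0.162), Pink1 (0.561, against 0.215 to 0.251), Ccpg1 (0.129, against −0.055 to −0.031) and Npc1 (−0.422, against −0.076 to −0.024). Array 4 did so for Vps16 (−0.316, against −0.017 to 0.028). For Pink1 the array set apart is the 1 that overlapped with control. Groups of 3 arrays were not examined in this way.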

How the results depend on the processing

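Of 13 processing alternatives, no background correction, the filters on dim probes, the other prior and array weights kept every count of passing genes within 1.5 times. At 5 g/kg, where 2 members passed, median centring, slide as a block and the replicate block each left 1, and the Cy5 channel alone, the scanner's processed signals and the series table left 0. The members' median there (0.021) became 0.061 with median centring and −0.01 with scanner signals, and the 10 wider genes became 1 (Cy5), 5 (scanner signals) and 6 (series table). Over all genes the 992 that passed became 131, 517 and 584 in those settings. At 7 g/kg the 6 members became 1 with Cy5 alone, and the 31 wider genes 8 with Cy5 alone, 20 with scanner signals and 20 with slide as a block. Over all genes the 2355 that passed became 520, 1713 and 1752 in those settings. The members' median (0.076) became 0.138 with median centring, 0.024 with scanner signals, 0.029 in the series table, −0.004 with the mean of a gene's probes and 0.034 with slide as a block. Between the doses the 1 member became 0 with median centring, Cy5 alone, scanner signals or the series table, 3 with outlier spots kept, and 2 with the mean of a gene's probes or slide as a block, and the median (0.007) became −0.037 with the mean of a gene's probes. The 6 wider genes became 1 with Cy5 alone, scanner signals or the series table, and 3 with the replicate block. Over all genes the 410 that passed became 38, 116, 138 and 289 in those settings. Tfeb at 7 g/kg changed sign with Cy5 alone (0.025). Why these values moved was not tested.

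Leaving out 1 array gave 0 to 2 members and 5 to 13 wider genes at 5 g/kg, 17 to 31 wider genes and member medians of 0.046 to 0.091 at 7 g/kg, and 0 to 1 members, 2 to 5 wider genes and member medians of −0.047 to 0.025 between the doses. Replicate numbers gave no pairing: the 9 same-numbered pairs correlated from −0.207 to 0.204. Pairs from different groups on the same slide correlated from −0.182 to 0.234, and the main fit had no term for slide. With the replicate block Wipi1 at 5 g/kg (0.44, adjusted p = 0.0905) and Tfeb at 7 g/kg (−0.396, adjusted p = 0.0517) no longer passed. The 3 or 4 arrays in a group limit the precision, with a median SE of 0.12 against control at 5 g/kg and 0.128 at 7 g/kg.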
